A study of Macaca mulatta with 4 samples.

Results

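The secreted and receptor-level genes of the Wnt pathway were followed through the developing cerebellum of the rhesus macaque fetus. Members were the rows of the gene list whose symbol begins with WNT, FZD, DKK, SFRP or RSPO, together with LGR4, LGR5, LGR6, LRP5, LRP6, ROR1, ROR2, RYK, ZNRF3, RNF43, AXIN2 and LEF1. This gave 44 of 30807 genes: 13 ligands, 9 frizzled receptors, 5 co-receptors and other receptors, 8 secreted inhibitors (with DKKL1, named for its likeness to the DKK genes), 8 R-spondins, LGR receptors and ubiquitin ligases, and LEF1. No row carried the symbol AXIN2 or RNF43. The reference table gives the symbols RNF43, WNT5B and WNT10B to rows listed by identifier only, and these 3 were kept outside the 44.

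Nuclei were isolated from flash-frozen cerebellar hemispheres of 4 fetuses, and 1 library per fetus was sequenced by single-nuclei RNA-seq (snRNA-seq) on the 10x Genomics platform. The control group held a female and a male fetus of 130 days of gestation without intervention. The LPS group held a male of 133 days and a female of 131 days exposed to 1 mg of LPS injected into the amniotic cavity, the bacterial endotoxin used as a model of chorioamnionitis. With 2 fetuses per group, the spread between fetuses of different sex is the only replicate error. Where 4 values follow each other below, they are for Control female, Control male, LPS male and LPS female, in this order.

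Wnt ligands are secreted lipid-modified proteins that bind frizzled receptors on neighbouring cells. With the co-receptors LRP5 and LRP6 they stabilize beta-catenin, which acts in the nucleus through factors of the TCF and LEF family; through ROR and RYK receptors they act on cell polarity and movement. Proteins of the SFRP and DKK families block ligands or co-receptors outside the cell. R-spondins, bound to LGR receptors, remove the ligases ZNRF3 and RNF43 that clear frizzled receptors from the membrane. Wnt signalling is known in the cerebellum for its part in forming the midbrain-hindbrain boundary and later in glia and in the wiring of granule cells (GCs).

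The libraries held 34282015 to 61665690 unique molecular identifiers (UMIs), and 6890 to 9250 nuclei per library passed the filters, 32565 in all. The LPS male library stood apart: 38.7% of its UMIs were in nuclei, against 58.7 to 73.9% in the others, and it gave 1882 of the 2401 nuclei of a cluster of low UMI number that was left unnamed. Mean mitochondrial shares were 0.212 and 0.264% in the libraries of female fetuses and 0.0214 and 0.0318% in those of males. Pairs of libraries shared 16 to 21 barcodes, where 7.91 to 11.7 would be shared at random. Clusters were made without the Wnt genes among their features and were named from marker genes. Purkinje cells (130 nuclei), endothelial cells (210) and fibroblasts (515) were small classes, and the LPS male library held 17, 27 and 34 of their nuclei.

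Levels are given as CPM, the UMIs of a gene scaled by the UMIs of all genes in a class of one fetus. They are not corrected for gene length, so genes are compared between classes and not with each other. Of the 44 members, 39 had at least 20 UMIs in all nuclei, and FZD9 and WNT1 had none in any library. The 12 named classes with at least 10 nuclei in each library were compared. In 14 of the 39 members the same class was the highest in all 4 fetuses. The share of all genes with this pattern was not computed, so the count is no result about the members. A level at least 4 times that of every other class in each fetus, with at least 20 UMIs in the class, was met by 3 of the 39 members, namely RSPO3, FZD4 and WNT7B, and by 2.67% of 17281 genes. Without the LPS male library 6 members met this, the additional ones being WNT16 in Purkinje cells, LGR5 in oligodendrocytes and ROR2 in fibroblasts, and 3.43% of all genes did. Since the classes were cut from the same nuclei, these levels are a description without a test.

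**Figure D1:**
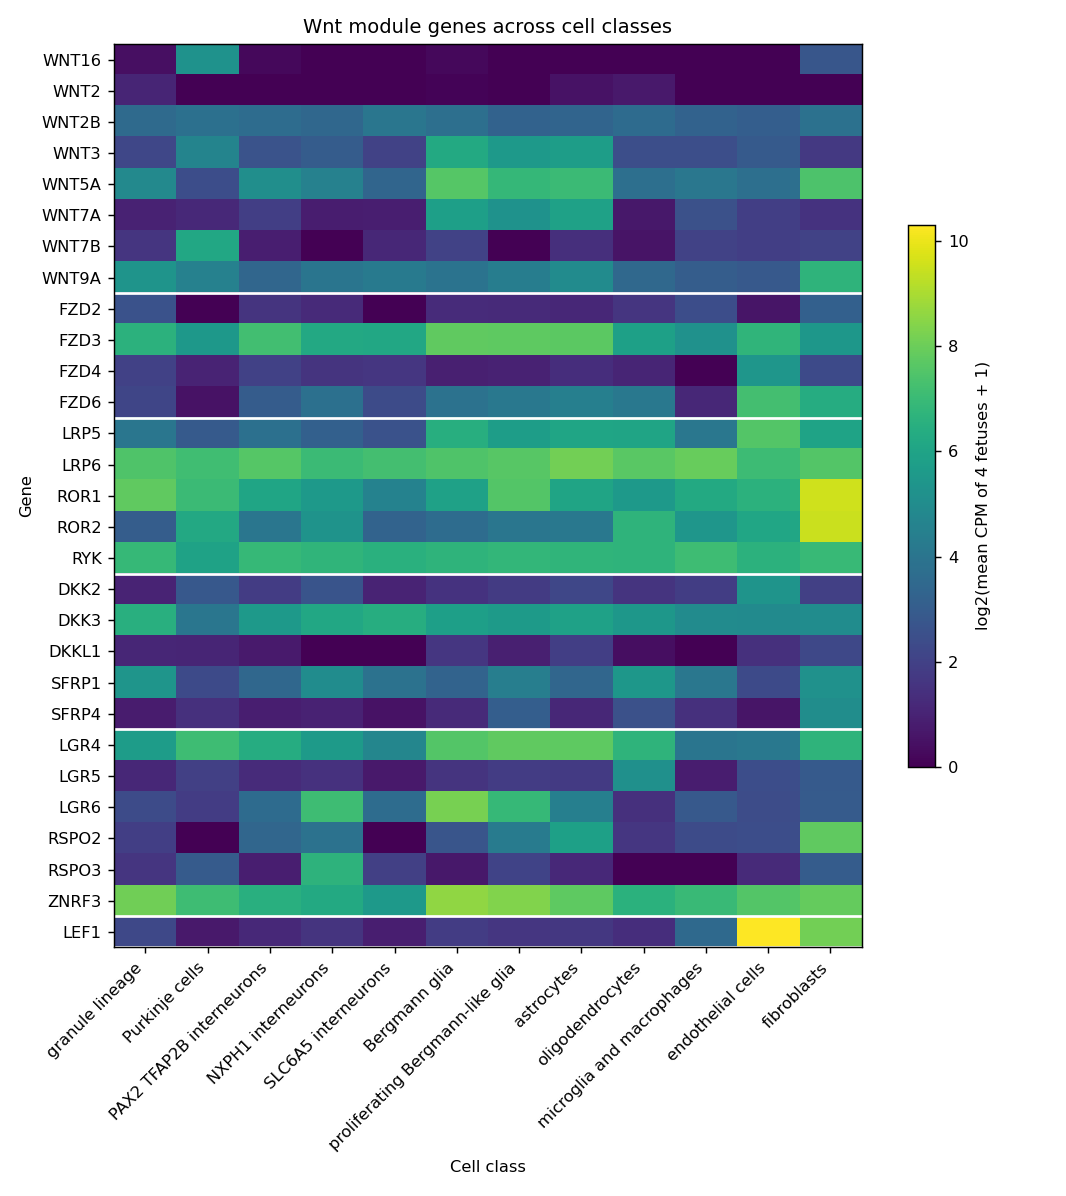
Level of each Wnt module gene with at least 100 UMIs (vertical axis, grouped by role between white lines) in 12 cell classes (horizontal axis), as the log2 of the mean CPM of 4 fetuses plus 1. Neuronal classes are at the left and vascular and meningeal classes at the right; LEF1 in endothelial cells (mean 1275 CPM) is the brightest field, and RSPO3 and WNT7B are each bright in 1 neuronal class.

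The ligands differed in the class of highest mean: Purkinje cells for WNT7B and WNT16, Bergmann glia for WNT3 and WNT5A, astrocytes for WNT7A, fibroblasts for WNT9A and the granule lineage for WNT2, there at 0.334 to 2.24 CPM. WNT7B, a ligand known from the growth of brain vessels, where it acts through beta-catenin, was a Purkinje gene: Purkinje cells held 41.9, 137, 78.8 and 28.2 CPM, and in no other of the 12 classes did any fetus reach the lowest of these values. These levels rest on 103 UMIs. WNT16, named after its values were seen, had 37.0, 33.1, 0 and 80.3 CPM in Purkinje cells, with no UMI in the 17 Purkinje nuclei of the LPS male fetus.

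Bergmann glia, the radial glia that guide migrating GCs, and astrocytes shared 3 ligands. WNT3 was highest in Bergmann glia at 53.3, 114, 58.5 and 74.0 CPM and reached 43.3, 70.1, 49.3 and 48.8 CPM in astrocytes, so the ranges overlapped. WNT7A, a close relative of WNT7B that was named after its values were seen, had 47.2, 73.3, 64.3 and 40.7 CPM in Bergmann glia and 55.8, 64.5, 71.3 and 43.5 CPM in astrocytes, while the granule stages stayed at means of 0.663 to 1.38 CPM. WNT5A, the best known ligand of the ROR receptors, was spread more widely. It had 218, 168, 136 and 243 CPM in Bergmann glia, 313, 89.0, 144 and 136 CPM in fibroblasts and 143, 98.3, 106 and 171 CPM in astrocytes, in overlapping ranges.

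WNT9A was highest in fibroblasts, with 62.9, 200.3, 87.8 and 63.0 CPM, and was the ligand with the most UMIs in the granule lineage (2757). WNT2B had no class of its own: its mean in free RNA, the barcodes with at most 100 UMIs, was 24.2 CPM and above its mean in each of the 12 classes. The remaining ligands were sparse. WNT2, WNT8A, WNT8B, WNT9B and WNT11 had between 3 and 106 UMIs in all nuclei.

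Among the frizzled receptors, which bind the ligands directly, FZD4 and FZD6 were vascular. FZD4, the receptor of the norrin pathway of brain vessels, had 34.8, 32.7, 54.1 and 46.5 CPM in endothelial cells from 44 UMIs. No other of the 12 classes exceeded 8.41 CPM in any fetus. FZD6, a receptor known from planar polarity, had 209, 88.6, 86.6 and 206 CPM in endothelial cells and 105, 62.3, 63.8 and 104 CPM in fibroblasts. Endothelial cells were above fibroblasts within each fetus, although the ranges over fetuses overlapped. FZD3, which guides axons, was present in every class, with means of 221 CPM in Bergmann glia, 212 CPM in astrocytes and 147 CPM in PAX2 TFAP2B interneurons. FZD2 was higher in free RNA (mean 18.1 CPM) than in any of the 12 classes, the highest of which were fibroblasts (8.05 CPM). FZD5, FZD7, FZD8 and FZD10 had 5 to 95 UMIs in all.

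The receptors ROR1 and ROR2, which bind WNT5A, shared fibroblasts as their highest class. ROR1 had 845, 997, 455 and 703 CPM there and ROR2 650, 1200, 614 and 443 CPM. Outside fibroblasts the pair parted: the granule lineage held ROR1 at 236, 206, 174 and 266 CPM and ROR2 at 5.89, 12.5, 7.02 and 3.63 CPM. Fibroblasts gave 1615 of the 3021 ROR2 UMIs and 1768 of the 23471 ROR1 UMIs. The second class for ROR2 was oligodendrocytes, with 106, 183, 85.2 and 38.5 CPM.

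The co-receptors of the beta-catenin branch were distributed differently. LRP5 was highest in endothelial cells, at 101, 247, 260 and 133 CPM, followed by Bergmann glia at 60.8, 134, 100 and 52.0 CPM. LRP6 was general, with the highest means in astrocytes (277 CPM), microglia and macrophages (242 CPM) and oligodendrocytes (203 CPM). RYK, a receptor related to tyrosine kinases, was as even: its highest mean among the 12 classes was 138 CPM in microglia and macrophages, against 116 CPM in free RNA.

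Of the secreted inhibitors, DKK3 and SFRP1 had the most UMIs, and both were high outside nuclei. DKK3, a member of the Dickkopf family whose action on Wnt is debated, averaged 130 CPM in free RNA, and SFRP1, a decoy that binds ligands, averaged 57.5 CPM there. Both values lay above the mean of each of the 12 classes. SFRP4 was highest in fibroblasts at 25.2, 25.2, 55.9 and 23.8 CPM. DKK2 differed between fetuses: in endothelial cells it had 0, 4.66, 0 and 153 CPM, so the LPS female fetus carried 46 of its 47 UMIs in that class.

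The R-spondins, which amplify the response of a cell to Wnt, were found in different classes. RSPO3 marked the interneurons led by NXPH1, with 135, 76.1, 34.2 and 155 CPM from 124 UMIs; the next of the 12 classes, fibroblasts, had a mean of 7.05 CPM. RSPO2 was highest of the 12 classes in fibroblasts, with 167, 162, 319 and 245 CPM, and astrocytes followed with 78.5, 27.0, 15.7 and 108 CPM. Unipolar brush cells, excitatory interneurons that were too few to be among the 12 classes (75 nuclei), had 1354, 214, 450 and 1042 CPM of RSPO2. RSPO1 and RSPO4 had 22 and 64 UMIs in all.

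Receptors for R-spondins lay in glia. LGR6 had 270, 323, 320 and 250 CPM in Bergmann glia, above every value of astrocytes (11.7, 19.1, 45.1 and 6.60 CPM). NXPH1 interneurons, the RSPO3 class, also had LGR6, at 163, 96.1, 237 and 59.4 CPM, below Bergmann glia in each fetus. LGR4, the most widely used of the 3 receptors, had means of 219, 213 and 186 CPM in proliferating Bergmann-like glia, astrocytes and Bergmann glia. LGR5, named after its values were seen and known as a stem cell marker of the gut, was highest in oligodendrocytes, at 52.9, 19.3, 17.8 and 51.3 CPM.

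ZNRF3, the ligase that R-spondins remove, was highest in Bergmann glia at 429, 397, 332 and 398 CPM and was also high in the granule lineage at 227, 275, 324 and 246 CPM. Its partner RNF43, taken from the row listed by identifier, had the same highest class, with 295, 190, 123 and 214 CPM in Bergmann glia. LEF1, a nuclear factor of the beta-catenin branch, had 1367, 1157, 1094 and 1481 CPM in endothelial cells, and fibroblasts followed at 373, 178, 319 and 224 CPM. Every endothelial value was above every fibroblast value, and means in the granule stages were between 1.74 and 10.1 CPM.

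**Figure D2:**
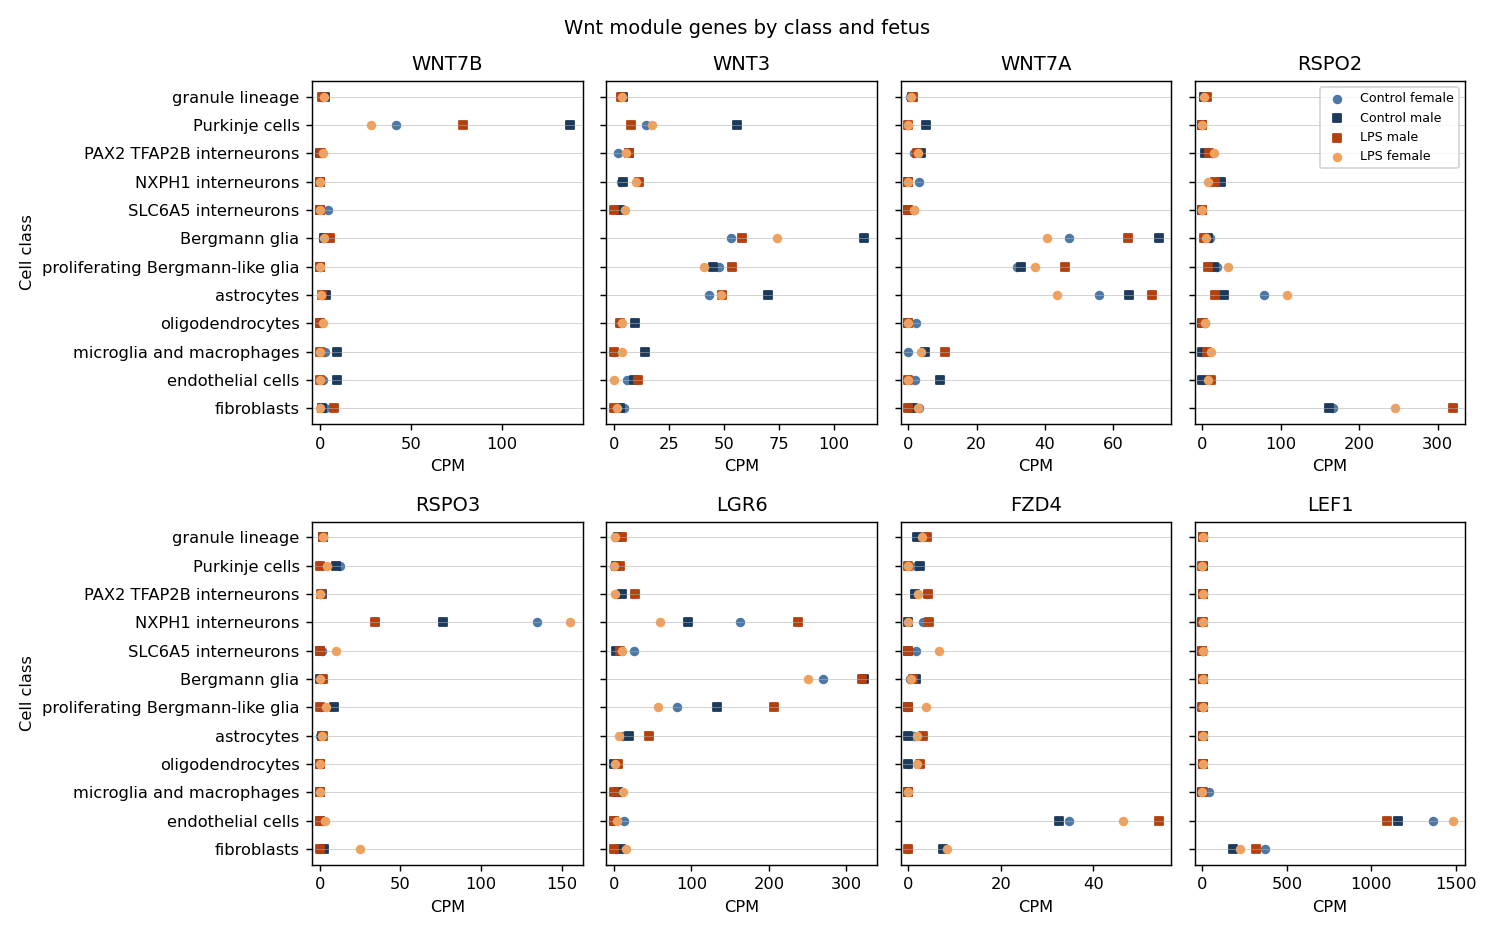
CPM of 8 Wnt module genes (horizontal axes, linear, one scale per gene) in 12 cell classes (vertical axis), with 1 point per fetus: circles are female, squares male, blue Control and orange LPS. WNT7B lies in Purkinje cells, RSPO3 in NXPH1 interneurons, FZD4 and LEF1 in endothelial cells and LGR6 in Bergmann glia, whose 250 to 323 CPM stay apart from the 6.60 to 45.1 CPM of astrocytes.

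Bergmann glia and astrocytes were compared for the 18 members with at least 100 UMIs in the pair of classes. Without overlap of the 4 fetuses, 2 members were higher in Bergmann glia, against 3.3% of 9913 genes, and 3 were lower, against 4.88%. The higher ones were LGR6 (mean 291 against 20.6 CPM) and ZNRF3 (389 against 213 CPM). The lower ones were RSPO2 (5.64 against 57.2 CPM), WNT9A (14.3 against 30.5 CPM) and LRP6 (175 against 277 CPM). In the other 13 members, WNT3, WNT5A and WNT7A among them, the ranges overlapped.

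Granule nuclei were followed through 5 stages, from proliferating granule cell precursors (GCPs) through committing, migrating and maturing to mature GCs. Of 23 members with at least 100 granule UMIs, 7 were lower in mature GCs than in proliferating GCPs without overlap of the fetuses, 1 was higher and 15 overlapped. Over all 13102 genes, 24.0% were lower and 9.95% higher by the same rule. The 7 were ROR1, LEF1, SFRP1, FZD6, LRP6, LRP5 and DKKL1, and the higher one was DKK3. Few UMIs lay behind DKKL1 (21 in GCPs and 11 in mature GCs) and LEF1 (82 and 41). With doublets removed 7 were lower as well, with WNT3 in the place of FZD6, whose mature values were all at or below 3.19 CPM. Leaving out any 1 library gave 7 or 8 lower and 2 higher members, while 26.2 to 30.5% of all genes were then lower and up to 13.3% higher. Without the LPS male library the members were 8 and 2, and the genes 30.1 and 13.3%.

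ROR1 had the steepest course. Proliferating GCPs held 933, 632, 846 and 896 CPM, committing GCs 1091, 804, 929 and 1018 CPM, migrating GCs 159, 128, 243 and 146 CPM, and mature GCs 7.47, 23.5, 30.5 and 7.70 CPM. The level was thus highest in all 4 fetuses at the stage that leaves the cell cycle, and the difference between mature GCs and GCPs was -5.50 on the log2 scale with 1 CPM added. Free RNA held ROR1 at a mean of 161 CPM and was estimated at 9.79 to 16.1% of the UMIs of mature GCs. Subtracting this share left almost no ROR1 in mature GCs, so that no size is given for the difference without free RNA.

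SFRP1 and LRP5 followed the same order of stages. SFRP1 had 131, 73.6, 79.9 and 196 CPM in proliferating GCPs, 193, 134, 84.0 and 284 CPM in committing GCs and 6.58, 5.72, 4.71 and 18.4 CPM in mature GCs, a log2 difference of -3.62 between the ends and of -5.01 with free RNA subtracted. LRP5 had 37.6, 61.6, 41.9 and 32.8 CPM in GCPs, 50.4, 82.5, 70.2 and 39.5 CPM in committing GCs and 3.73, 3.49, 2.91 and 4.32 CPM in mature GCs, a log2 difference of -3.27, or -4.41 with free RNA subtracted. LRP6, its paralog, kept more of its level, with means of 229 CPM in GCPs, 244 CPM in migrating GCs and 124 CPM in mature GCs.

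DKK3 ran the other way. It had 24.9, 16.5, 57.5 and 22.9 CPM in GCPs and 133, 104, 247 and 132 CPM in mature GCs, with a log2 difference of 2.30, or 3.41 with free RNA subtracted. The LPS male fetus was the highest of the 4 at each of the 5 stages. RSPO2 and FZD4 came next among the members with the largest ratios, at 1.04 and 0.84 on the log2 scale; their means in mature GCs were 3.13 and 3.81 CPM, and the ranges of both overlapped those in GCPs.

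WNT9A and ZNRF3 had their highest mean in migrating GCs. WNT9A had 70.8, 136, 75.0 and 58.4 CPM there and 27.7, 72.1, 36.1 and 34.1 CPM in GCPs, and within each fetus migrating GCs were the highest of the 5 stages. ZNRF3 had 358, 358, 331 and 357 CPM in migrating GCs, and in maturing GCs 142, 188, 226 and 157 CPM, lower in every fetus. In mature GCs it had 302 and 379 CPM in the males and 186 and 205 CPM in the females, and in the LPS male this was above its migrating GCs. The mature stage joined more than 1 cluster. The cluster led by RAB37 held 356, 405, 1196 and 273 of the 1858, 1346, 2118 and 1042 mature nuclei, and its part in the ZNRF3 values was not tested. RNF43 was highest in committing GCs (mean 179 CPM) and had a mean of 45.8 CPM in mature GCs, below the 120 CPM of GCPs without overlap.

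**Figure D3:**
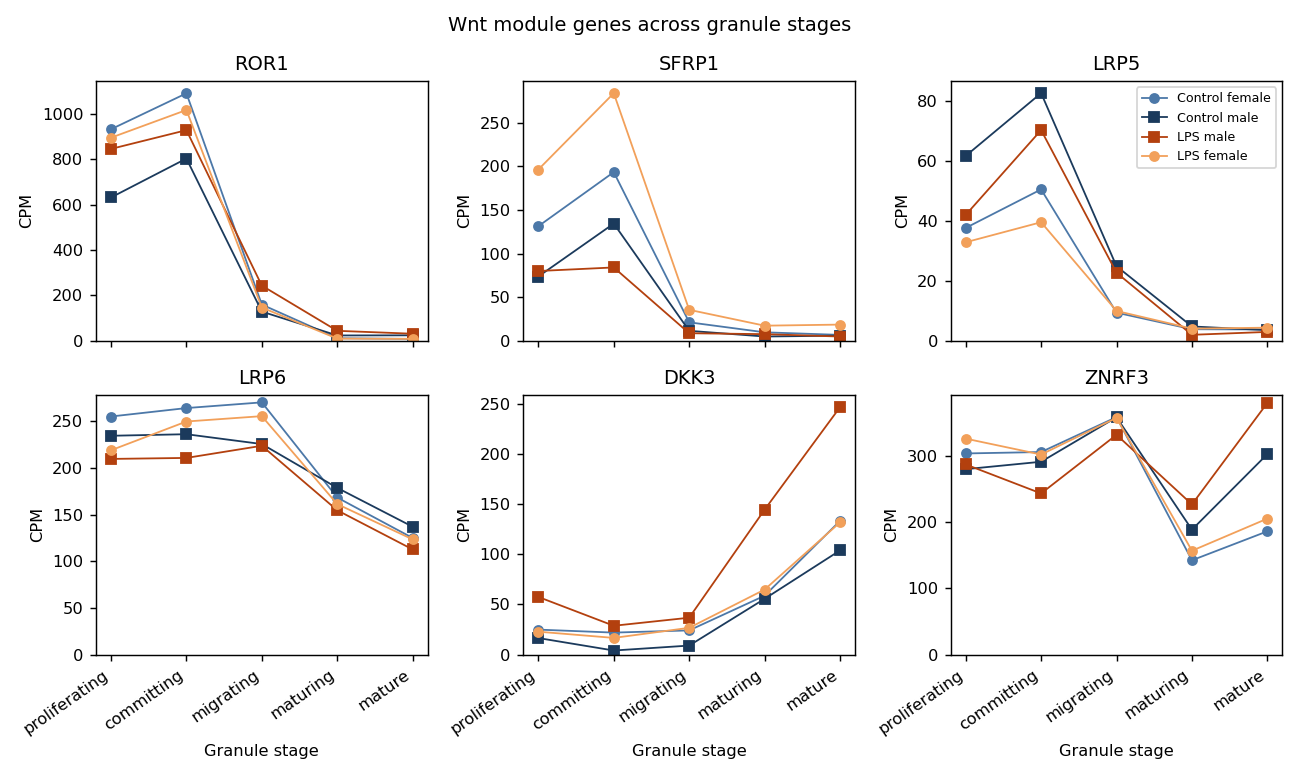
CPM of 6 Wnt module genes (vertical axes, linear from 0) at 5 granule stages (horizontal axis), with 1 line per fetus: circles are female, squares male, blue Control and orange LPS. ROR1, SFRP1 and LRP5 peak in committing GCs and are low in mature GCs (ROR1 mean 17.3 CPM), DKK3 rises to a mean of 154 CPM, and ZNRF3 falls from migrating to maturing GCs in all 4 fetuses.

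Pathway genes outside the 44 were counted by the same rule, by which 24.0% of all genes were lower in mature GCs and 9.95% higher; with 5 to 13 genes per list, nothing particular to a list is read from its count. Of 13 genes tested of the destruction complex, which marks beta-catenin for degradation, and its regulators, 3 were lower in mature GCs and none higher; CTNNB1, which encodes beta-catenin, went from a mean of 202 to 109 CPM. Of 10 TCF factors and nuclear cofactors, 3 were lower and 1 higher: TCF7L2 had 248 and 25.7 CPM and TCF7L1 179 and 24.9 CPM in GCPs and mature GCs. Of 5 genes of Wnt secretion and further extracellular inhibitors, 2 were lower, among them WLS, the carrier that exports Wnt ligands (40.0 and 3.77 CPM). WLS was highest in Purkinje cells, with a mean of 245 CPM. Of 6 feedback targets 2 were lower and 1 higher, and of 11 planar polarity genes 3 were lower, with CELSR1 at 59.1 and 2.62 CPM.

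Control and LPS-exposed fetuses were then compared with UMIs summed per class and fetus, the fetus being the replicate. No gene was called in any of 7 classes or in the sum of all nuclei by the quasi-likelihood test of edgeR at an adjusted p under 0.1 and a log2 fold change over 0.25 (0.0% of 14884 genes in the granule lineage, and 0.0% in each other sum), so no member was called. Between 10 and 29 members were tested per class and 35 in all nuclei. In the granule lineage 27 of 14884 genes and no member had an unadjusted p under 0.05 in edgeR, and DESeq2 called no gene there. The number under 0.05 depended on the model. With sex as a block, which pairs the fetuses of a sex, edgeR gave 273 genes and 2 members in the granule lineage. Under this block 2 of 12 members in oligodendrocytes and 3 of 17 in fibroblasts had such a p. Of all genes, 427 of 8035 and 307 of 8652 did. DESeq2 called 1 gene in oligodendrocytes and 4 in fibroblasts, no gene in the other sums and no member. The median log2 fold change of the 29 granule members was 0.04, against 0.01 over all genes tested, and 15 of the 29 (51.7%) were above 0, against 51.4% of all genes. This balance rested on single libraries: the members' median was -0.32 without the LPS female (10 of 28 above 0), -0.01 without the Control male (16 of 35), 0.21 without the Control female (21 of 31) and 0.22 without the LPS male (22 of 35). In the same order the medians of all genes were -0.03, 0.05, 0.06 and -0.01, with 47.0, 55.0, 53.9 and 49.2% above 0.

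Over the 7 classes, 2 members had an unadjusted p under 0.05 in edgeR without a block, ROR2 in oligodendrocytes and RSPO2 in fibroblasts. These were among 68 of 8035 genes in oligodendrocytes and 164 of 8652 in fibroblasts. ROR2 in oligodendrocytes had 106 and 183 CPM in the controls and 85.2 and 38.5 CPM in the LPS-exposed fetuses, with a log2 fold change of -1.19 ± 0.46 (SE), an unadjusted p of 0.026 and an adjusted p of 1.00 in edgeR. With sex as a block, pairing each LPS-exposed fetus with the control of its sex, edgeR gave -1.26 with an adjusted p of 0.0238. In that class 21 genes were then called. The error of this model rests on how far the 2 pairs of fetuses disagree. Neither edgeR without a block nor DESeq2 called ROR2 there. RSPO2 in fibroblasts had 167 and 162 CPM in the controls and 319 and 245 CPM in the LPS-exposed fetuses, with a log2 fold change of 0.75 ± 0.32 (SE), an unadjusted p of 0.0449 and an adjusted p of 1.00 in edgeR.

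The ROR2 values were lower in both LPS-exposed fetuses than in both controls in oligodendrocytes, fibroblasts and PAX2 TFAP2B interneurons. The shares of all genes with this pattern there were 9.6, 13.4 and 8.08%. In each of these classes the Control male was the highest fetus. The classes come from the same fetuses, and the part of free RNA in the ROR2 values was not tested. In PAX2 TFAP2B interneurons LRP5 was the other lower member, and none of 16 was higher, where 9.26% of genes were. In fibroblasts the log2 fold change was -0.83 ± 0.38 (SE) and in PAX2 TFAP2B interneurons, with 14.7, 27.1, 8.63 and 10.9 CPM, it was -1.06 ± 0.53 (SE). In the granule lineage and in Bergmann glia the groups overlapped, with log2 fold changes of -0.76 ± 0.58 and -0.68 ± 0.79 (SE), and each LPS-exposed fetus was below the control of its sex. In astrocytes the value was -0.01 ± 0.66 (SE). Purkinje cells had 29.0, 58.5, 189 and 17.4 CPM and a value of 1.02 ± 0.93 (SE). Without the LPS male library, which holds 17 of the 130 Purkinje nuclei, it was -1.25.

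In the sum of all nuclei ROR2 had 18.6, 61.9, 16.4 and 18.4 CPM, so that the Control male stood above the other 3. Fibroblasts, the class of highest ROR2, numbered 131, 203, 34 and 147 nuclei in the 4 libraries, and their part in this sum was not tested. In such a sum fewer cells of a class cannot be told apart from less RNA per cell. Its partner ROR1 was also lower in fibroblasts of both LPS-exposed fetuses, with a log2 fold change of -0.65 ± 0.33 (SE). In the granule lineage, its main site, ROR1 was at -0.01 ± 0.34 (SE). In fibroblasts FZD3 had 37.8 and 14.8 CPM in the controls and 55.9 and 65.8 CPM in the LPS-exposed fetuses, with a log2 fold change of 1.24 ± 0.56 (SE). Both FZD3 and RSPO2 were higher there without overlap, as were 13.9% of genes. In oligodendrocytes FZD3 went the other way, lower without overlap at means of 66.1 CPM in the controls and 49.4 CPM in the LPS-exposed fetuses, with a log2 fold change of -0.43 ± 0.44 (SE).

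In the granule lineage 4 of 29 members were higher in both LPS-exposed fetuses than in both controls, against 7.1% of all genes, and 2 were lower, against 5.08%. The higher ones were SFRP4, WNT2, LGR4 and FZD4, of which LGR4 had 52.5, 41.0, 52.8 and 56.1 CPM and the others were at or below 4.17 CPM in every fetus. The lower ones were LEF1, with 3.87, 5.67, 2.34 and 2.77 CPM and a log2 fold change of -0.88 ± 0.51 (SE), and LRP6, with 190, 189, 147 and 187 CPM and -0.18 ± 0.28 (SE). None had an unadjusted p under 0.05 in edgeR without a block. Free RNA held LEF1 at 21.2, 26.4, 6.69 and 19.2 CPM and was estimated at 13.7, 16.1, 20.7 and 12.1% of granule UMIs. The part of free RNA in the granule LEF1 values was not tested. In the sum of all nuclei 4 of 35 members were higher in both LPS-exposed fetuses (DKK2, SFRP2, WNT2 and FZD4), against 7.11% of genes, and LRP6 and ROR2 were lower, against 5.51%. The higher ones were sparse, with 277, 74, 106 and 364 UMIs in all nuclei. Endothelial cells held 47 of the DKK2 UMIs, almost all in the LPS female fetus. The sum of all nuclei includes the unnamed cluster of low UMI number, with 335, 57, 1882 and 127 nuclei in the libraries. The part of this cluster in the sum was not tested.

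DKK3 and LRP5 differed in the male fetuses and hardly in the females. Granule DKK3 was 70.0, 49.6, 174 and 65.4 CPM, so that the LPS male stood above the other 3, and the log2 fold change was 0.98 ± 0.56 (SE). Mature GCs, the stage where DKK3 was highest, were 2118 of the 4372 granule nuclei of the LPS male and 1858 of 6842, 1346 of 6063 and 1042 of 5136 in Control female, Control male and LPS female; the part of this share in the granule value was not tested. Granule LRP5 had 24.0 CPM in the Control male and 11.9 CPM in the LPS male, while 0.019 on the log2 scale separated the female pair. Its log2 fold change was -0.54 ± 0.40 (SE). Within stages the Control male and the LPS male had 61.6 and 41.9 CPM of LRP5 in GCPs and 82.5 and 70.2 CPM in committing GCs. They had 24.8 and 22.6 CPM in migrating GCs, 4.73 and 1.94 CPM in maturing GCs and 3.49 and 2.91 CPM in mature GCs. The part of the stage shares in the granule LRP5 value was not tested. In oligodendrocytes DKK3 was higher in both LPS-exposed fetuses, with 31.7, 32.2, 71.2 and 34.8 CPM, as were 11.3% of genes. Free RNA, where the mean of DKK3 was above that of each class compared, was estimated at 14.1, 23.8, 24.7 and 9.47% of oligodendrocyte UMIs. Its part in the oligodendrocyte values was not tested.

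No member had an unadjusted p under 0.05 in edgeR in Bergmann glia, astrocytes or Purkinje cells. In Bergmann glia the smallest unadjusted p in edgeR belonged to WNT2B (0.57 ± 0.52, SE, on the log2 scale), which was the only one of 17 members higher in both LPS-exposed fetuses, where 9.13% of genes were, and none was lower, where 7.62% of genes were. LGR6, the Bergmann gene, had a log2 fold change of -0.06 ± 0.30 (SE) there. In astrocytes none of 18 members was without overlap (9.54% of genes were higher and 7.87% lower), and the smallest p was that of FZD6 (-0.62 ± 0.75, SE). In Purkinje cells WNT7B was at -0.87 ± 0.71 (SE), ZNRF3 was higher without overlap (0.36 ± 0.49, SE; 11.0% of genes) and RYK lower (-0.53 ± 0.54, SE; 7.65% of genes).

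**Figure D4:**
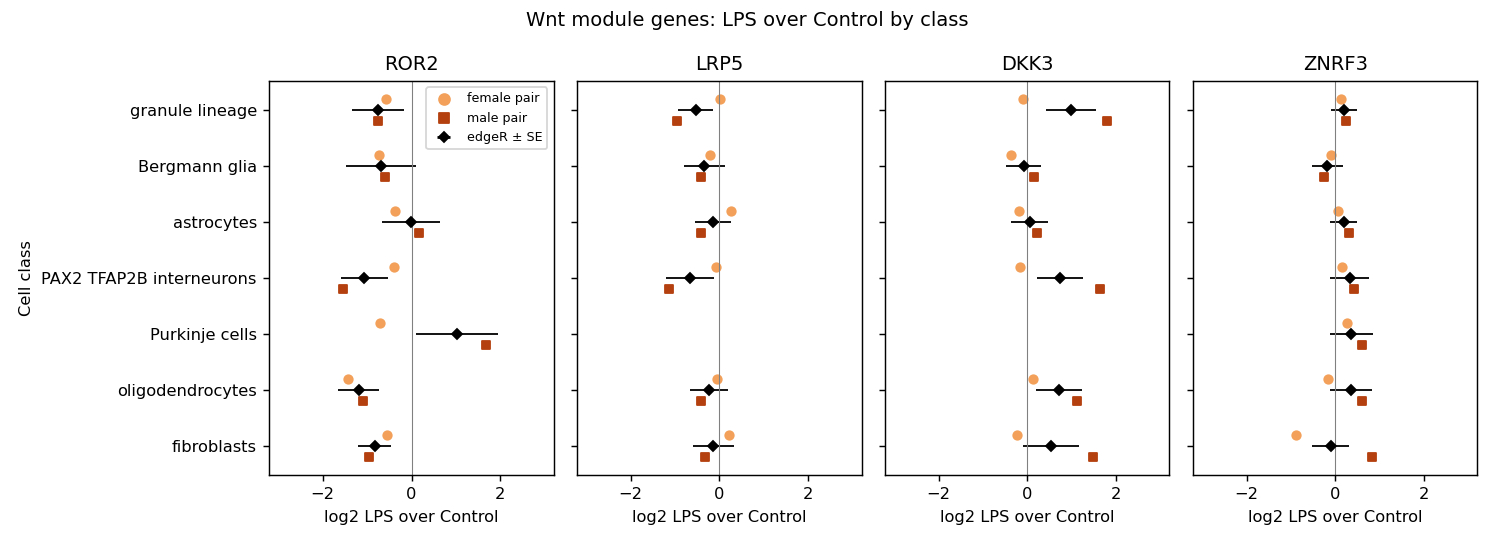
Log2 difference of LPS over Control (horizontal axes) of 4 Wnt module genes in the classes where each was tested (vertical axis). Black diamonds are the edgeR log2 fold change with its SE, circles the female pair and squares the male pair of fetuses, as the log2 ratio of CPM plus 1. ROR2 lies left of 0 in both pairs in 5 classes. These classes come from the same fetuses, and the share of all genes with this pattern was not computed. The squares of DKK3 reach 1.79 in the granule lineage while its circle is at -0.10.

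The test was not run in the other classes, and their values are given alone. RSPO3 in NXPH1 interneurons averaged 106 CPM in the controls and 94.7 CPM in the LPS-exposed fetuses, within the spread of either group. Endothelial LEF1 averaged 1262 and 1287 CPM, and endothelial FZD4 averaged 33.7 and 50.3 CPM, from 44 UMIs. None of the 5 pathway lists outside the 44 had a gene called by edgeR in any of the sums, and 1 planar polarity gene each in oligodendrocytes and fibroblasts had an unadjusted p under 0.05.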

How the data were processed

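The deposited values are raw UMI counts for every barcode and gene; the authors applied no normalization, barcode filter or pooling to them. Per the labels, reads were mapped with CellRanger 5.0 to Mmul_8.0.1 with introns included, while the submitters' processing notes name Cell Ranger 4. The study's removal of ambient RNA is not in these counts. The members and gene lists were chosen with earlier results of these data known.

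A nucleus was a barcode of 500 or more genes whose mitochondrial UMIs did not exceed 5%. Anchor integration in Seurat 5.3.0 (R 4.3.3) was run on 1988 features, after 12 Wnt genes had been removed from 2000, with 30 dimensions and a resolution of 0.5. Clusters were named from marker lists by their mean log2 CPM above the lower quartile of clusters. A name other than granule lineage needed a mean of 2.5 and 3 raised markers. Clusters short of this were named granule lineage. Those of 4208 and 3369 nuclei scored higher for unipolar brush cells (1.65 and 1.63) than for the granule lineage (1.54 and 1.45). The granule lineage was clustered again for its stages, which were scored against the median of clusters. A cluster of low UMI number and a cluster with 63.0% doublets stayed unnamed, as did a granule cluster of 286 nuclei, which is in no stage. Doublets were called by Scrublet (scanpy 1.11.5) and kept. Its automatic threshold marked none in the 2 male libraries, where the median threshold of the others was used.

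UMIs were summed per class and fetus, and the sum of all nuclei also held the unnamed clusters. Control and LPS were compared by the quasi-likelihood test of edgeR 4.0.16 after filterByExpr and TMM, with Benjamini-Hochberg adjustment over all genes tested. DESeq2 1.42.0 was the other tool. Classes and stages were compared by whether the values of the 4 fetuses overlapped, without a test. Log2 ratios of CPM used a pseudocount of 1. The share of free RNA was the 0.25 quantile, over markers of other classes, of their share in the class relative to free RNA. The scripts for edgeR and DESeq2 were first checked on simulated counts. Members named were the 4 with the most UMIs in each role, those marked by 1 class, the 5 with the smallest p per class and the 3 at each end of the granule stages; others are named as chosen after their values were seen. Sequencing depth was 34282015 to 61665690 UMIs per library, and levels of members with few UMIs are limited by counting error.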

Additional observations from a re-analysis of the deposited data

Results flagged for a closer look

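Each sex had 1 LPS-exposed and 1 control fetus. In 13 of 40 cases, the 5 members of smallest p in each of 7 classes and in all nuclei, the female pair and the male pair had log2 ratios of LPS over Control of opposite sign, from CPM plus 1. Over all genes tested in these sums 52.3% had opposite signs, so the number of cases is no result about the members, and in 3 of the 13 the female ratio was near 0, at 0.0024 to 0.019. With 1 pair per sex the difference between sexes was not tested, and it cannot be told apart from the differences between single libraries.

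DKK3, highest in mature GCs among the granule stages, was higher in the LPS male than in the Control male and slightly lower in the female pair. Its log2 ratios were -0.10 in females and 1.79 in males in the granule lineage. They were -0.17 and 1.63 in PAX2 TFAP2B interneurons, and -0.11 and 1.59 in all nuclei. Free RNA, where the mean of DKK3 was above that of each class compared, was estimated at 14.9, 26.2, 28.1 and 12.1% of PAX2 TFAP2B interneuron UMIs. Its part in the interneuron values was not tested. WNT9A had the order opposite to that of DKK3, with 0.013 in females and -1.38 in males in the granule lineage, 0.75 and -0.25 in astrocytes, and 0.0024 and -1.18 in fibroblasts. In Purkinje cells WNT9A was at 1.02 in females and -5.77 in males, the LPS male having no WNT9A UMI in its 17 nuclei. LRP5 in the granule lineage was at 0.019 in females and -0.95 in males; mature GCs, where LRP5 was low, were 2118 of the 4372 granule nuclei of the LPS male and 1346 of 6063 of the Control male, and their part in the value was not tested.

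Glial cases were WNT3 in Bergmann glia (0.47 in females, -0.95 in males), LGR6 in astrocytes (-0.74 and 1.20) and ZNRF3 in oligodendrocytes (-0.17 and 0.60). SFRP1 in PAX2 TFAP2B interneurons was at 1.43 in females and -0.44 in males, and ROR2 in Purkinje cells at -0.71 and 1.68. The mean of SFRP1 too was higher in free RNA than in any class compared, and the part of free RNA in its interneuron values was not tested.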

How the results depend on the processing

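Calls between Control and LPS depended on the settings in the smaller classes, while no gene was called under any of them in the granule lineage or in all nuclei. When genes of low count were kept, edgeR called 10 genes in Bergmann glia, 4 in astrocytes, 2 in PAX2 TFAP2B interneurons, 4 in Purkinje cells, 9 in oligodendrocytes and 40 in fibroblasts. DESeq2 called 1 gene in oligodendrocytes and 4 in fibroblasts. With sex as the replicate block edgeR called 21 genes in oligodendrocytes, 1 member (ROR2, -1.26) among them, and 3 genes in fibroblasts. The block changed no other call, and its error rests on how far the 2 pairs of fetuses disagree. Leaving out 1 library gave 0 to 23 genes in Bergmann glia, 0 to 9 in astrocytes, 0 to 55 in PAX2 TFAP2B interneurons, 0 to 10 in Purkinje cells, 10 to 57 in oligodendrocytes and 0 to 86 in fibroblasts. The lone fetus of a group was then assumed to vary like the other group.

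Among the 5 members of smallest p in each class, signs changed when 1 library was left out and under no other setting, and the cause was not tested. Further members changed sign under other settings too: 8 of 17 in fibroblasts were above 0, against 6 with DESeq2 and 5 with sex as the block. In Bergmann glia the log2 fold changes ranged from -1.66 to 0.096 (ROR2), -0.79 to 0.18 (LRP5), -0.65 to 0.21 (WNT3) and -0.41 to 3.81 (SFRP1). In astrocytes they ranged from -1.92 to 0.21 (FZD6), -1.13 to 1.49 (LGR6), -0.044 to 1.01 (WNT2B) and -0.077 to 0.62 (WNT9A). In Purkinje cells they ranged from -1.56 to 0.031 (WNT7B), -1.25 to 2.03 (ROR2), -6.50 to 0.34 (WNT9A) and -1.02 to 0.37 (FZD3). The ranges were -1.37 to 1.95 for SFRP1 in PAX2 TFAP2B interneurons, -0.38 to 0.80 for ZNRF3 in oligodendrocytes and -1.49 to 0.15 for WNT9A in fibroblasts.

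Members higher in mature GCs numbered 2 with free RNA subtracted (11.7% of all genes), and 2 in each of the settings that left out a library (up to 13.3%), an alternative chosen after seeing the data. Members marked by 1 class numbered 3 to 6 there, and 2.73 to 3.43% of all genes were. Precision is limited by 2 fetuses per group and by classes of few nuclei.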
